A study of Mus musculus with 6 samples.

Results

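Neurexophilins, neurexins and neuroligins form a trans-synaptic adhesion system. Neurexins are presynaptic membrane proteins whose extracellular domains bind neuroligins on the facing postsynaptic membrane. Neurexophilins are small secreted glycoproteins that bind the longer, alpha forms of neurexins from outside the cell. The system is best known from synapses of the brain and of the mature retina, whereas the cells measured here were retinal progenitor cells (RPCs) sorted from the embryo. The family comprised 9 genes, taken by their gene symbols in the platform annotation: the neurexophilin genes Nxph1, Nxph2, Nxph3 and Nxph4, the neurexin genes Nrxn2 and Nrxn3, and the neuroligin genes Nlgn1, Nlgn2 and Nlgn3. They had 20 probe sets of the 45037 on the array, and 9 of the 18193 genes that were represented by at least 1 probe set of their own.

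The mutant group was 3 pools of Pax6 flox alpha-Cre cells, in which both Pax6 copies carried loxP sites around the start codon and the exons of the paired domain, and the control group was 3 pools of alpha-Cre cells with wild-type Pax6. Both groups were ICR mice at E12 (embryonic day 12), both carried the alpha-Cre transgene, and each pool held 1800000 GFP-positive cells sorted from the eyes. In the transgene, Pax6's own P0 promoter with its α enhancer of the peripheral retina drives Cre and GFP. The sort was thus aimed at cells of the distal retina in both genotypes. Each pool was hybridised to 1 Affymetrix array, and levels are given as log2 of the deposited RMA intensity, a summary of all probes of a probe set. The array medians lay between 3.68 and 3.71 on this scale. Levels under the array median are poorly resolved, and levels of different probe sets were not compared with each other.

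The targeted gene had 5 probe sets, of which 1 was called lower (log2 fold change -1.60 in mutant RPCs), while the other 4 lay between -0.22 and 0.10 and were not called. Which of them lies in the deleted part of Pax6 was not looked up here. Among progenitor markers, 9 of 10 were measured, and all 9 lay above the array median on at least 1 array. A summed intensity of 5496 to 5652 was found for them on mutant arrays, against 8068 to 8538 on control arrays. Of these, Sfrp2 (-0.98) and Fgf15 (-1.43) were called lower, the other 7 had log2 fold changes between -0.40 and 0.06, and the median of the list was -0.30. Marker values are those of each gene's brightest probe set. For Ccnd1 the brightest was not called (-0.30), whereas 2 of its 3 probe sets were called lower. Markers of other cells of the eye were higher on the mutant arrays, with 5 of 8 pigment epithelium genes, 4 of 8 endothelial genes, 3 of 7 mesenchyme genes and 1 of 7 lens genes called higher and none called lower. Some were bright in both groups, such as Pmel (11.75 in mutant, 11.42 in control RPCs) and Cryaa (10.22 and 9.58), while Twist1, Prox1 and Bfsp1 were dim. The name RPCs is that of the labels and methods, and the purity of the sort was not tested. Of 11 newborn neuron and ganglion cell genes, 5 were called lower and none was called higher. Among all genes, each by its brightest probe set, 2.28% were called higher and 0.918% lower. In pools of cells, fewer cells of a type and less RNA per cell cannot be told apart.

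Calls rest on limma, fitted over all probe sets: the fold change had to reach 1.5, with p under 0.05 and the Benjamini-Hochberg adjusted p under 0.10. The family was chosen by the mutant and control values of this same contrast, in which the higher Nxph1 level was already known. Its mutant and control values are therefore a description, given with standard errors and without p-values. Of the 20 probe sets, 2 were called higher, both of Nxph1, and 1 was called lower, of Nlgn1. Over all probe sets, 1.67% were called higher and 0.984% lower, 2.65% in all. The other 17 had log2 fold changes between -0.36 and 0.25. Across the 20, the median log2 fold change was -0.06, beside -0.02 over all probe sets. The 3 mutant arrays lay on 1 side of the 3 control arrays for 5 of the 20, against 28.2% of all probe sets. The spread between replicate arrays was of the usual size, with a median SD of 0.09 on mutant and 0.13 on control arrays, against 0.09 and 0.10 over all probe sets.

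**Figure D1:**
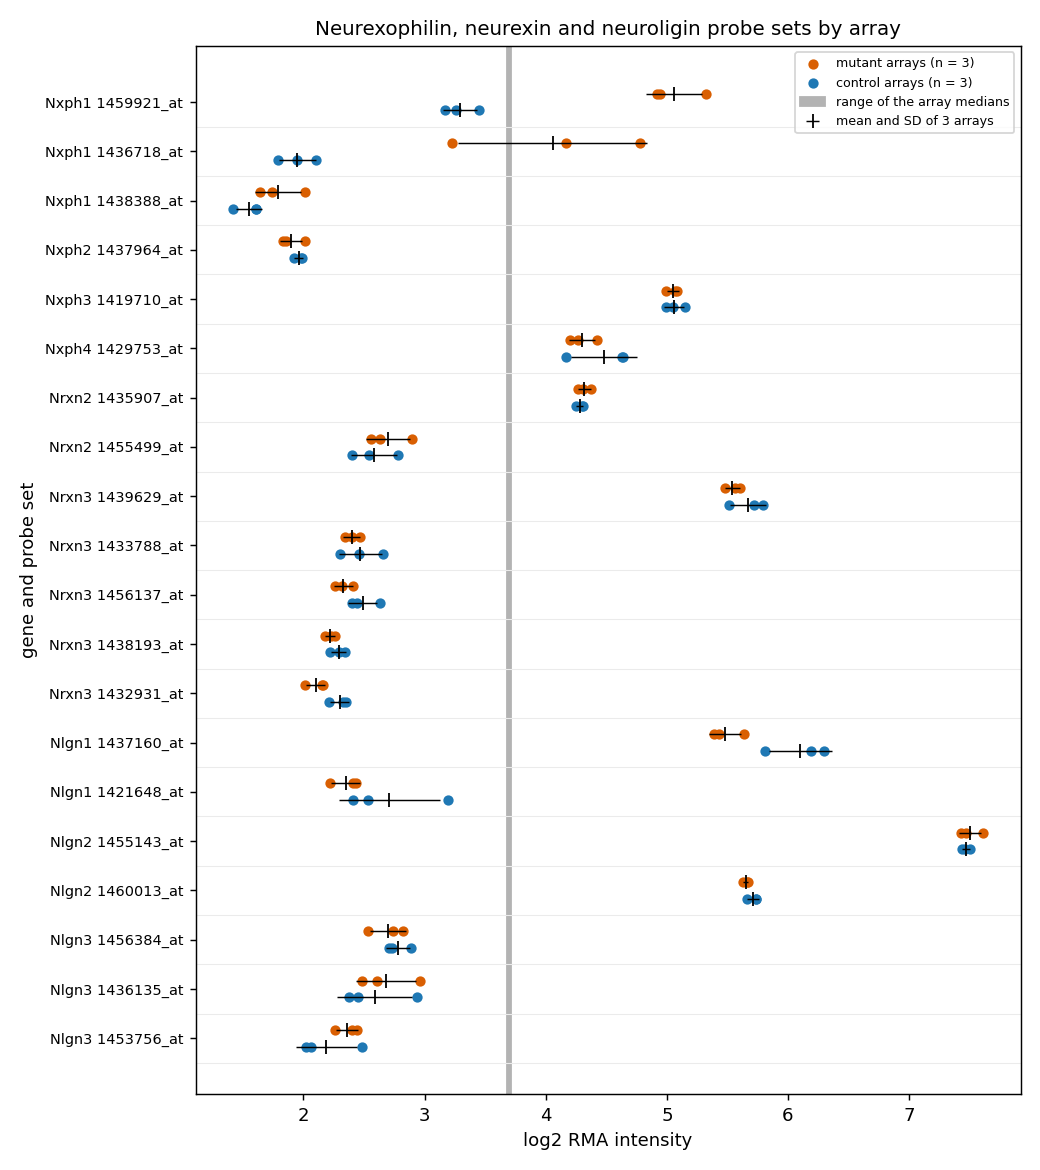
Log2 RMA intensity of all 20 family probe sets on each array, with mutant arrays in orange above control arrays in blue, black bars for the mean and SD of 3 arrays, and a grey band for the array medians (3.68 to 3.71). The upper 2 Nxph1 rows and the brighter Nlgn1 row are the called ones, and 11 of the 20 probe sets lie below the band on every array.

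Nxph1 was the neurexophilin gene that was called higher in mutant RPCs. It encodes neurexophilin 1, a secreted ligand of alpha-neurexins that in the rodent brain is made by subsets of inhibitory neurons. The brightest of its 3 probe sets was at 5.32, 4.94 and 4.92 in mutant RPCs, against 3.26, 3.45 and 3.17 in control RPCs. All 3 mutant arrays were above the array median and all 3 control arrays below it, and the groups did not overlap. The log2 fold change was 1.77 (standard error, SE, 0.13), a 3.4-fold higher intensity. As the control level lay under the array median, the size of the difference is uncertain: with an offset of 16 added to the intensities it was 0.94 on the log2(intensity + 16) scale.

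The second Nxph1 probe set showed the same direction with a wider spread. It was at 4.78, 4.17 and 3.23 in mutant RPCs, against 2.10, 1.95 and 1.79 in control RPCs. Its SD was 0.78 on mutant arrays, the largest in the family, and 0.15 on control arrays. All mutant arrays lay above all control arrays, although mutant replicate 3 was below the array median. The log2 fold change was 2.11 (SE 0.35). This probe set was called by limma and was not called with unmoderated variances. With the offset of 16 it was at 0.75 and called.

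The third Nxph1 probe set lay below the array median on all 6 arrays and was not called. It was at 2.01, 1.74 and 1.64 in mutant RPCs, against 1.61, 1.42 and 1.61 in control RPCs, with a log2 fold change of 0.25 (SE 0.11). The groups did not overlap here either, but the lowest mutant and the highest control array were close. Across the 6 arrays, which share the 2 genotypes, the brighter pair of probe sets had a Pearson r of 0.953, and the dimmest had one of 0.742 with the brightest and 0.865 with the other. By the median of its 3 probe sets on each array, Nxph1 had a log2 fold change of 2.11. On every array that median was the second probe set, so the value repeats that probe set's own. With each array left out in turn, the brightest probe set stayed called, with values of 1.64 to 1.85, and so did the second, with values of 1.75 to 2.53.

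Nxph1 lies on chromosome 6. Start regions from RefSeq were at hand for 5 of the 9 genes, and that of Nxph1 is shown as the start region of the gene that rose, with CpG dinucleotides in capitals. It is the 250 bases before its start site in GRCm38.p6, at chr6:8949769-8950018 on the plus strand, 5′ to 3′.
Nxph1: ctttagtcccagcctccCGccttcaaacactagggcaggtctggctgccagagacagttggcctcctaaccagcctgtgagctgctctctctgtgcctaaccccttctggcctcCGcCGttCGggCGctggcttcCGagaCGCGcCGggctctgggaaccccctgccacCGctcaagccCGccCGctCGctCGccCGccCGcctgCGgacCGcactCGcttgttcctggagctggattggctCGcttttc
This window held 20 CpG dinucleotides and was 66.8% G and C. Its ratio of observed to expected CpG was 0.75, above that of 77.1% of all 32851 start regions of this length. It held no match, on either strand, to TAATTA (a homeodomain motif, in 4.84% of all start regions), to TAATCC (the motif of Otx and Crx homeodomains, in 6.25%) or to CAGATG (an E-box that proneural factors can bind, in 14.4%), and neither did the start regions of the other members with an entry. These letters alone say nothing about which factors act on the gene.

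The other neurexophilins were not called. Nxph3 was at 4.99, 5.08 and 5.07 in mutant RPCs, against 5.15, 5.05 and 4.99 in control RPCs, all above the array median and overlapping. Its log2 fold change was -0.02 (SE 0.07, 95% interval -0.17 to 0.14), an interval that does not reach a fold change of 1.5. Nxph4 was at 4.27, 4.42 and 4.20 in mutant RPCs, against 4.64, 4.63 and 4.17 in control RPCs. Control replicate 3 was low and lay below all mutant arrays, and without it the log2 fold change was -0.34, against -0.18 (SE 0.14) with all arrays. Nxph2 was below the array median on all 6 arrays, with levels between 1.83 and 2.01 in mutant RPCs and between 1.92 and 1.99 in control RPCs, and its log2 fold change was -0.06 (SE 0.07). These arrays do not show whether Nxph2 was expressed.

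**Figure D2:**
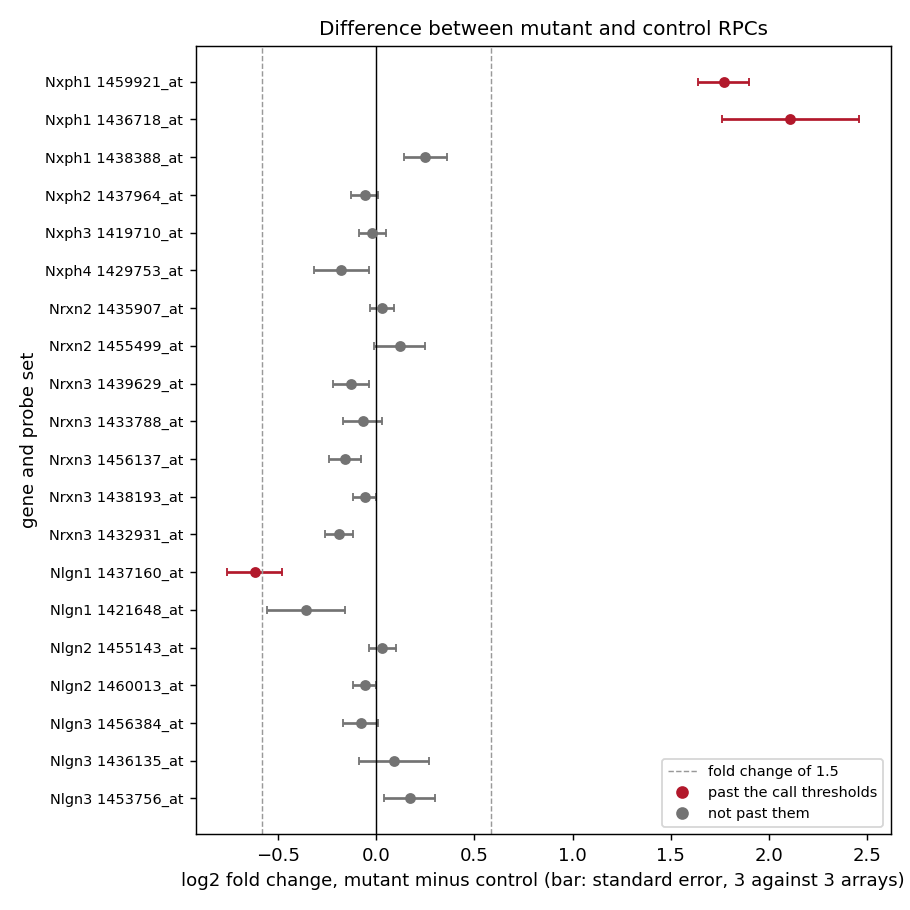
Log2 fold change of each family probe set, mutant minus control, with the standard error (SE) as a bar and dashed lines at a fold change of 1.5. The called Nxph1 probe sets lie at 1.77 and 2.11, the called Nlgn1 probe set at -0.62 is just beyond the dashed line, and the other 17 lie between the lines.

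No neurexin probe set was called. All 7 stayed under a fold change of 1.5. Nrxn2 encodes a neurexin with alpha and beta forms, and its brighter probe set was at 4.27, 4.37 and 4.31 in mutant RPCs, against 4.25, 4.30 and 4.31 in control RPCs. The log2 fold change was 0.03 (SE 0.06, 95% interval -0.11 to 0.17), with overlapping groups above the array median. The dimmer Nrxn2 probe set lay below the array median on all arrays, with a log2 fold change of 0.12 (SE 0.13).

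Nrxn3, the neurexin gene with the most probe sets here, had 5, all with negative log2 fold changes between -0.19 and -0.06. The brightest was at 5.48, 5.60 and 5.56 in mutant RPCs, against 5.72, 5.79 and 5.51 in control RPCs, with a log2 fold change of -0.13 (SE 0.09). The groups overlapped because control replicate 3 lay inside the mutant range. The 4 others were below the array median on all 6 arrays. Of these, the lowest by fold change was the 1 neurexin probe set whose groups did not overlap, at 2.01, 2.16 and 2.15 in mutant RPCs, against 2.21, 2.35 and 2.33 in control RPCs. Probe sets of 1 gene share its transcripts and are not independent of each other.

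Nlgn1 was the family member that was called lower in mutant RPCs. It encodes neuroligin 1, a postsynaptic neurexin receptor found mainly at excitatory synapses. Its brighter probe set was at 5.64, 5.43 and 5.39 in mutant RPCs, against 5.81, 6.30 and 6.19 in control RPCs. All arrays were above the array median, the groups did not overlap, and the highest mutant and the lowest control array, both replicate 1, were the closest. The log2 fold change was -0.62 (SE 0.14), a 1.53-fold lower intensity that just reached the fold change of 1.5. The call was lost without mutant replicate 2 (-0.59), mutant replicate 3 (-0.57), control replicate 2 (-0.52) or control replicate 3 (-0.57), with the replicate block (-0.62), with an offset of 16 (-0.48) or with unmoderated variances.

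The dimmer Nlgn1 probe set was below the array median throughout and was not called. It was at 2.22, 2.43 and 2.41 in mutant RPCs, against 2.53, 3.19 and 2.41 in control RPCs. Control replicate 2 was the high array, and without it the log2 fold change was -0.12, against -0.36 (SE 0.20) with all arrays. By the median of both probe sets, Nlgn1 was at a log2 fold change of -0.49, under the fold change of 1.5, and the call was lost. Newborn neuron and ganglion cell markers were lower on the same arrays, with a summed intensity of 284 to 347 on mutant arrays, against 487 to 789 on control arrays over 11 genes. Snap25 was the marker of this list below the array median on all arrays, and the part of these cells in the Nlgn1 values was not tested.

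For Nlgn1, which lies on chromosome 3, 2 RefSeq start regions were at hand, shown as those of the gene that was lower and written as above. They are at chr3:26331910-26332159 and chr3:26153987-26154236 in GRCm38.p6, both on the minus strand.
Nlgn1 upstream start: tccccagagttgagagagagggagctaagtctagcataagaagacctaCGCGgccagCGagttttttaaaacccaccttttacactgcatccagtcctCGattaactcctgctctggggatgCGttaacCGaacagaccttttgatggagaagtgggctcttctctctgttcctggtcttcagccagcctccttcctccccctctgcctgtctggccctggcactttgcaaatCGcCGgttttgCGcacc
Nlgn1 downstream start: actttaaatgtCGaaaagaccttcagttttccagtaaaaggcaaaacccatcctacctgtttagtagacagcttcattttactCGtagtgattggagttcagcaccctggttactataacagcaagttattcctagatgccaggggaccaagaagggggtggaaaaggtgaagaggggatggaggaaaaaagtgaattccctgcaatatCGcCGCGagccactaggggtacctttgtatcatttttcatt
The upstream window held 9 CpG dinucleotides and was 53.6% G and C, and the downstream window held 5 and was 43.6% G and C. Both had fewer than the 20 of Nxph1. The arrays do not tell from which start the Nlgn1 transcripts came.

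The 2 other neuroligins were not called. Nlgn2, whose protein is a neuroligin of inhibitory synapses, had 2 probe sets, both above the array median on all arrays. The brighter was at 7.43, 7.47 and 7.61 in mutant RPCs, against 7.50, 7.46 and 7.44 in control RPCs, with a log2 fold change of 0.03 (SE 0.07, 95% interval -0.13 to 0.20). The other had a log2 fold change of -0.06 (SE 0.06), and both pairs of groups overlapped. Nlgn3 encodes a neuroligin found at excitatory and inhibitory synapses. Its 3 probe sets were below the array median on all 6 arrays, overlapped between the groups, and had log2 fold changes of -0.08, 0.09 and 0.17. The levels of Nlgn3 were between 2.26 and 2.96 in mutant RPCs and between 2.02 and 2.94 in control RPCs.

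The genes flanking the called members on their chromosomes were compared in the same fit, with the 5 nearest protein-coding genes on each side in GRCm38.p6. Of the 10 neighbours of Nxph1, 9 were measured, and none was called, with log2 fold changes between -0.16 (Mios) and 0.32 (Glcci1). None reached a fold change of 1.5, and 3 had an unadjusted p under 0.05 from limma. Of the 10 neighbours of Nlgn1, all were measured and none was called. Ect2, which encodes an exchange factor needed for cytokinesis, had the lowest log2 fold change of these (-0.55, SE 0.10, limma adjusted p = 0.0264). None of the 10 reached a fold change of 1.5, and 1 had an unadjusted p under 0.05 from limma.

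Partner genes of neurexins and neuroligins were taken in 5 lists by role, with 1 probe set per gene, the brightest. Of 105 listed genes, 95 were measured, and of these 6 were called higher and 2 lower in mutant RPCs. Over all genes, 2.28% were called higher and 0.918% lower, 3.2% in all. The median log2 fold change was 0.00 over the partner genes and -0.01 over all genes. Of the partner genes, 47 had a positive and 48 a negative log2 fold change.

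Among 20 neurexin ligands and their receptors, 1 was called higher and none lower, and the median log2 fold change was 0.08. The called gene was C1ql3, which encodes a secreted C1q-like protein that can bind neurexin 3. C1ql3 was at 5.77, 6.0 and 5.83 in mutant RPCs, against 4.99, 4.73 and 5.13 in control RPCs. Its groups did not overlap, with a log2 fold change of 0.91 (SE 0.12, limma adjusted p = 0.0104), and 2 of its 3 probe sets were called higher. By the median of the 3, it was at 0.53 and not called. The lowest value of the list was that of Igsf21, a neurexin-binding immunoglobulin protein gene, with -0.91 (SE 0.26, limma adjusted p = 0.107), which was not called. Igsf21 was at 3.16, 3.13 and 3.07 in mutant RPCs, against 3.59, 3.78 and 4.70 in control RPCs, and its log2 fold change was -0.57 without control replicate 3. Igsf21 was called lower with array weights (-0.93) and without control replicate 1 (-1.12). At -0.91 each, it was also called with the dimmest 40% of probe sets left out and with a mean-variance trend. It has 1 probe set here, so the fit of gene medians, in which it was called too, used the same values (-0.91). The postsynaptic neurexin ligand genes Lrrtm1, Lrrtm2, Lrrtm3 and Lrrtm4 were below the array median on all arrays and were not called, and Dag1, the dystroglycan gene, was at 9.05 in mutant and 8.93 in control RPCs.

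Of 13 genes whose products act at the cytoplasmic side of neurexins, 1 was called higher and 1 lower. Syt1, which encodes the calcium sensor of synaptic vesicles, was at 6.59, 6.52 and 6.75 in mutant RPCs, against 5.95, 5.96 and 6.06 in control RPCs. Its log2 fold change was 0.64 (SE 0.08, limma adjusted p = 0.00967), and it was not called without mutant replicate 3 (0.57) or when its probe sets were taken by their median (0.56). Lin7a, a gene of a scaffold that joins Cask, was at 4.57, 4.69 and 4.62 in mutant RPCs, against 5.21, 5.60 and 5.18 in control RPCs. It had a log2 fold change of -0.70 (SE 0.12, limma adjusted p = 0.0224), with 1 of its 3 probe sets called. Lin7a was not called by the median of the 3 (-0.19), without control replicate 2 (-0.57) or with unmoderated variances. Cask, which encodes the kinase-like scaffold that binds the tail of neurexins, was not called either, with a difference of 0.07 on the log2 scale. Epb41l1, a gene of a membrane skeleton protein, was not called by its brightest probe set (0.28), whereas another of its probe sets was called higher (0.86, limma adjusted p = 0.00598).

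Of 18 neuroligin partners and postsynaptic scaffold genes, 1 was called higher and none lower, with a median log2 fold change of -0.07. Dlg2, which encodes a PSD-95-like scaffold, was at 4.21, 4.50 and 4.09 in mutant RPCs, against 3.74, 3.59 and 3.68 in control RPCs. Its log2 fold change was 0.60 (SE 0.11, limma adjusted p = 0.0299), but by the median of its 3 probe sets it was -0.07. Dlg2 was also not called without mutant replicate 2 (0.48) or control replicate 2 (0.56), with array weights (0.58) or with unmoderated variances. The lowest value of the list was that of Homer1, a scaffold of glutamate receptors, with -0.32 (limma adjusted p = 0.0552), which was not called. The PSD-95 gene Dlg4 and the gephyrin gene Gphn had log2 fold changes of 0.16 and -0.26 and were not called.

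Among 10 genes of contactins and of the neurexin-like Cntnap membrane proteins, none was called higher and 1 was called lower. Cntn3 was at 2.39, 2.76 and 2.73 in mutant RPCs, against 3.35, 3.37 and 3.25 in control RPCs, with a log2 fold change of -0.70 (SE 0.11, limma adjusted p = 0.0171). All 6 arrays were below the array median for Cntn3, 1 of its 2 probe sets was called, and it was not called without mutant replicate 1 (-0.58) or with unmoderated variances. The highest values of the list were those of Cntnap2, with 0.32 (SE 0.10, limma adjusted p = 0.117), and Cntn6, also with 0.32 (SE 0.06, limma adjusted p = 0.0351), neither of which was called.

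**Figure D3:**
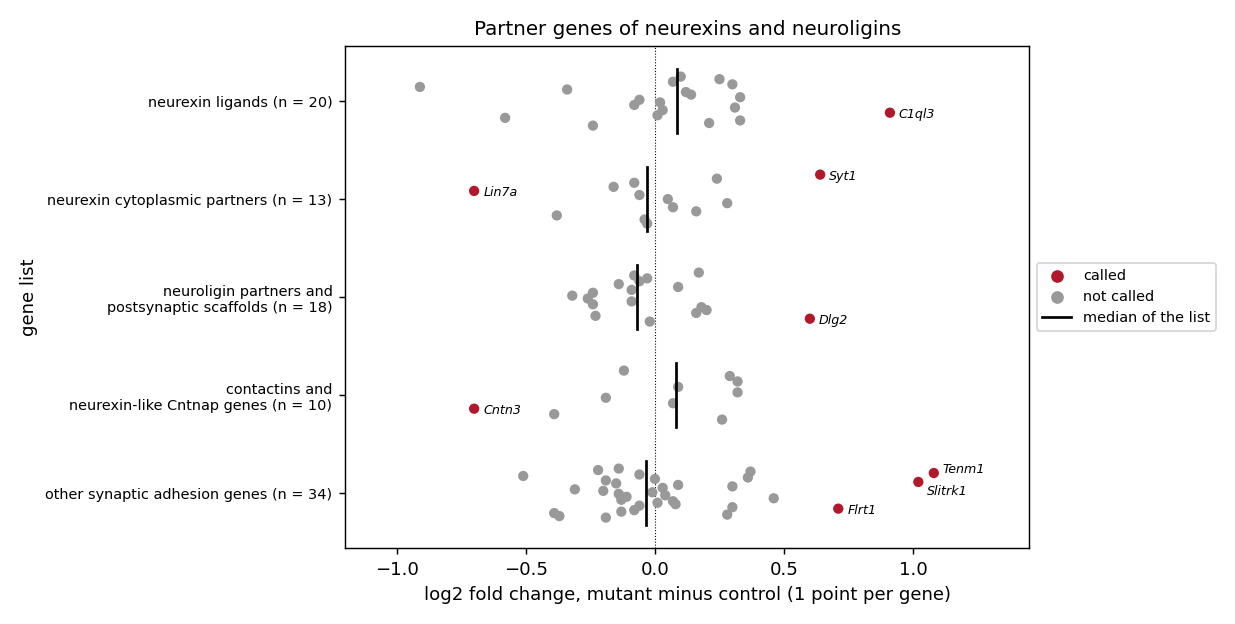
Log2 fold change, mutant minus control, of the 95 measured partner genes in 5 lists, with 1 point per gene by its brightest probe set and a black line at each list's median. The 8 called genes are red and named, 6 to the right and 2 to the left, and the medians lie between -0.07 and 0.08.

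Of 34 other synaptic adhesion genes, 3 were called higher and none lower, with a median log2 fold change of -0.03. Tenm1, a teneurin gene, was at 5.27, 4.84 and 4.64 in mutant RPCs, against 4.30, 3.68 and 3.53 in control RPCs. The log2 fold change was 1.08 (SE 0.23, limma adjusted p = 0.0459), with 1 of 2 probe sets called. Replicate 1 was the highest array of Tenm1 in each group, and the call was lost without mutant replicate 1 (0.91), mutant replicate 2 (1.12), control replicate 2 (1.00) or control replicate 3 (0.93), or with unmoderated variances.

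Slitrk1, a leucine-rich repeat adhesion gene of neurons, was at 4.43, 4.57 and 4.25 in mutant RPCs, against 3.80, 3.11 and 3.29 in control RPCs. Its log2 fold change was 1.02 (SE 0.18, limma adjusted p = 0.0259), and it was not called with unmoderated variances. Flrt1, whose product can bind latrophilins, was at 5.47, 5.72 and 5.73 in mutant RPCs, against 5.04, 4.88 and 4.88 in control RPCs. Its log2 fold change was 0.71 (SE 0.09, limma adjusted p = 0.0109), with 1 of 2 probe sets called, and by the median of both it was at 0.42 and not called. The lowest value of the list was that of Slitrk5, with -0.51 (limma adjusted p = 0.0671), which was not called. In each of these called genes the mutant arrays lay on 1 side of the control arrays, which the call thresholds themselves make likely. Over all genes, called or not, the share was 33.4%.

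The profile of Nxph1 across the arrays was shared by many genes. By the brightest Nxph1 probe set, 392 of 18192 other genes had a Pearson r of at least 0.95 over the 6 arrays. The 5 with the highest r, between 0.9943 and 0.9965, were Lhfp, Upk3bl, Fam107b, Lrrn1 and Csnk1g1. These points share the 2 genotypes and their arrays, and no test was made of r. Of the 5, Lhfp was called higher, at 6.69, 6.58 and 6.61 in mutant RPCs, against 5.79, 5.84 and 5.71 in control RPCs, with a log2 fold change of 0.85 (SE 0.07, limma adjusted p = 0.00295). Lrrn1, a leucine-rich repeat membrane protein gene, had a log2 fold change of 0.58 (SE 0.06, limma adjusted p = 0.00521), just under the fold change of 1.5. Fam107b, Upk3bl and Csnk1g1 had smaller ones, of 0.51, 0.44 and 0.15.

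**Figure D4:**
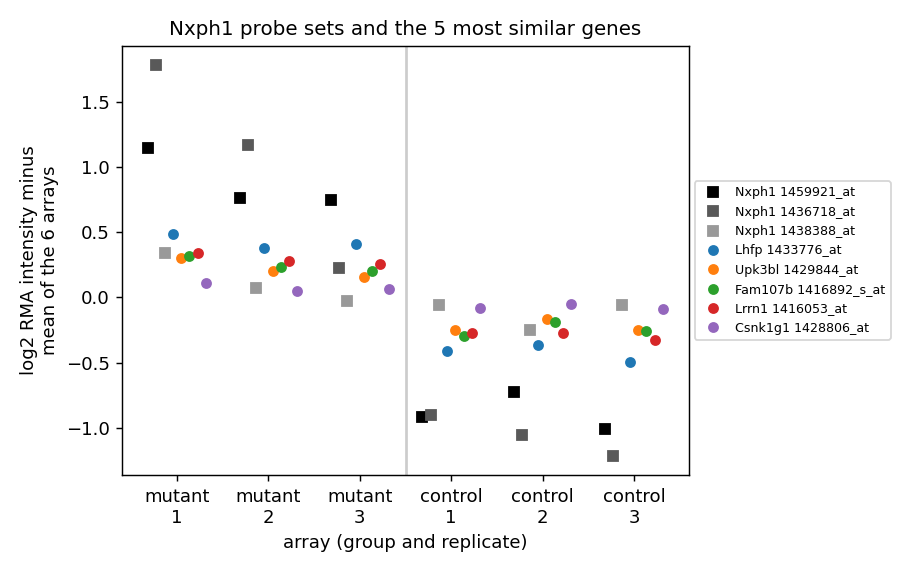
Log2 RMA intensity minus the mean of the 6 arrays, for the 3 Nxph1 probe sets (squares) and the 5 genes with the most similar profile (circles), with mutant arrays left of the grey line and control arrays right of it. All circles lie above 0 on mutant and below 0 on control arrays, and their range is smaller than that of the brighter Nxph1 probe sets.

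Lists of markers of other cells of the eye also had higher sums on mutant arrays. The brightest Nxph1 probe set was highest on replicate 1 of the mutant arrays (5.32) and on replicate 2 of the control arrays (3.45). All mesenchyme markers were also highest on mutant replicate 1, such as Col1a2 (8.18), whereas Cryaa (10.05) was lowest there among mutant arrays. On control replicate 2, Col1a2 (7.20) and Cryaa (10.02) had their highest control levels. Prrx1 (3.32), Tyr (9.13) and all endothelial markers, such as Cdh5 (4.11), had their lowest control levels on that array. The summed intensity of 8 pigment epithelium genes was 8767 to 8850 on mutant arrays, against 5569 to 6761 on control arrays. That of 8 endothelial genes was 972 to 1035 on mutant arrays, against 527 to 752 on control arrays. That of 7 mesenchyme genes was 688 to 972 on mutant arrays, against 451 to 477 on control arrays, and that of 7 lens genes 2233 to 2620 on mutant arrays, against 1027 to 1978 on control arrays. None of these ranges overlapped between the groups. The 33.4% of all genes whose groups did not overlap is a share of single genes and not of such sums. Bright genes weigh most in such sums. Foxe3 (0.15), Prox1 (0.06) and Bfsp1 (0.04) of the lens list overlapped between the groups, as did Col1a1 (0.62) and Twist1 (0.16) of the mesenchyme list. The other genes of the 4 lists did not overlap. All pigment epithelium and endothelial markers were above the array median on at least 1 array, whereas Twist1 of the mesenchyme list and Prox1 and Bfsp1 of the lens list were below it on all arrays. The part of these cells in the Nxph1 values was not tested.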

How the data were processed

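Sorted RPCs of 3 mutant and 3 control pools were profiled on 1 Affymetrix mouse genome array each. The deposited values are intensities per probe set on a linear scale, which the authors made by RMA (background correction, normalisation between arrays and summary of the probes), through RACE and Bioconductor per the methods. Expression Console is also named, in the submitters' processing notes, and no version of either tool was found. RMA draws low values together, which can shrink differences of dim probe sets. Log2 was taken, 64 control probe sets were left out, and 45037 probe sets were fitted with limma 3.58.1 in R 4.3.3, mutant minus control. The fold, p and FDR thresholds are those of the methods, which name no test statistic for the arrays beyond a further use of SAM. The fit was tested on simulated data. Probe sets were named by the platform annotation: 34945 had 1 gene symbol, 932 had several and were not named, and 9160 had none. No array has a depth, and 3 arrays a group limit the precision. The pools are described as biological repeats. No arrays were identical, with r of 0.995 to 0.997 within and 0.991 to 0.993 between the groups.

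Named were all probe sets of the members, in each partner list the called genes (up to 3 in each direction) and its highest and lowest value, the 5 genes most correlated with Nxph1, and Pax6. The genes of small counts in the marker lists and the neighbours were named after their values were seen. The members, marker lists and partner lists were chosen with earlier results of these data known. Not analysed here were 10 listed partner genes and some of the listed markers. Alternatives were another scaling, a filter on dim probe sets, other variance models, array weights, a replicate block, an offset, the median of a gene's probe sets and leaving out each array.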

Additional observations from a re-analysis of the deposited data

How the results depend on the processing

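With all alternatives, Nxph1 stayed higher and Nlgn1 lower in mutant RPCs. Of the family, 1 probe set was called higher after the dimmest 40% were left out, which removes the second Nxph1 probe set, and 1 without the moderation of the variance. The family's count of lower calls was 0 without the moderation, with the offset of 16 and with the replicate block, and 0 to 1 without 1 array at a time, as given for Nlgn1. Without 1 array at a time, 2 family probe sets stayed called higher. Over all probe sets, 282 were called higher and 178 lower without the moderation, and 343 and 174 with the offset. Without 1 array at a time these counts were 544 to 787 and 342 to 504. Of the partner genes, 3 were called higher and 0 lower without the moderation, 2 and 0 with the offset, and 3 higher by the median of a gene's probe sets. With array weights 4 were lower, and without 1 array at a time 4 to 6 were higher and 1 to 4 lower, fewest lower without mutant replicate 1 and most without control replicate 3. By the median of their probe sets, Dlg2 (-0.07) and Cntnap2 (-0.02) turned negative. The cause was not tested. With the offset, C1ql3 and Tenm1 remained called and the 6 other called partner genes did not.

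Replicate numbers do not pair the arrays: deviations of same-numbered mutant and control arrays had correlations of -0.011, -0.001 and -0.008. With the replicate block, 709 probe sets were called higher and 427 lower, against 752 and 443 without it, partner genes stayed at 6 higher and 2 lower and the family at 2 higher, and Nlgn1 was not called. Signal over background limits the dim probe sets of the family, 11 of which lay below the array median on all arrays.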
